A study of Mus musculus with 12 samples.

Results

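The mitochondrial carriers of solute carrier family 25 were described across 3 sorted fractions of glial cells from the mouse spinal cord. The members are all protein-coding genes whose symbol starts with Slc25a in the GENCODE M21 annotation of GRCm38, which gave 47 genes among the 53465 genes in the count files. All 47 passed the filter on low counts, and 43 reached an average of 1 CPM (read counts per library depth, scaled by TMM factors) in 1 or more fractions and are described here. The other 4, Slc25a2, Slc25a31, Slc25a41 and Slc25a54, stayed under 1 CPM in the mean of every fraction. The spinal cords came from C57BL/6 mice at postnatal day 7, at the brachial and thoracic levels, and were dissociated with papain. Every fraction came from mice of the genotype Aldh1L1-GFP/Olig2-tdTomato, so all groups share both reporters and differ in what was sorted. The labels name an eGFP fraction, a tdTomato fraction and a fraction with both, eGFP/tdTomato. Each has 4 libraries, and their numbers are 1, 2, 3 and 5. Aldh1l1 is an astrocyte gene and Olig2 encodes a regulator found in the oligodendrocyte lineage and in ventral progenitors. Sort gates and animals per library are not given in the sources used here, so a p-value measures the spread between these libraries.

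Carriers of this family sit mostly in the inner mitochondrial membrane and exchange nucleotides, phosphate, carboxylates, amino acids, acylcarnitines and cofactors between the cytosol and the matrix. They set which substrates can be oxidised in the matrix, export citrate for fatty acid synthesis, and carry the aspartate and oxoglutarate of the malate-aspartate shuttle. In the central nervous system, glutamate oxidation is known mainly from astrocytes, while oligodendrocytes are known for the synthesis of myelin lipids. Many carriers come as pairs of close paralogues with overlapping substrates.

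Reads counted in genes ran from 12564767 to 36505583 per library. The library of eGFP replicate 1 differed from the rest, with the lowest depth and 57.1% of its reads outside annotated genes, and the counts of called carriers below are also given without it. The marker lists followed the labels. Summed over 10 astrocyte genes, the eGFP and eGFP/tdTomato fractions were at 40479 ± 6109 and 45332 ± 3129 CPM (SD, n = 4 each) and the tdTomato fraction at 284 ± 38.7, while 8 genes of myelinating oligodendrocytes summed to 779 ± 396, 2321 ± 819 and 128058 ± 23479 CPM in that order. No gene of these lists was at 0 in every library of a fraction. In bulk libraries of this kind, fewer cells that express a carrier and less of its RNA per cell cannot be told apart.

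The fractions with the astrocyte reporter differed from the tdTomato fraction in 5 carriers by 9.68-fold or more, and in the other called carriers by 1.44- to 3.84-fold. Against the tdTomato fraction, 12 of the 43 carriers were higher and 4 lower in the eGFP/tdTomato fraction, where 16.8% and 12.4% of all 29361 tested genes were called (edgeR quasi-likelihood test, Benjamini-Hochberg adjusted p under 0.05; a carrier said to pass or not is judged by this test unless another is named). In the eGFP fraction 11 were higher and 12 lower, where the background was 20.4% and 14.9%. Taken in either direction, 37.2% and 53.5% of the carriers were called, beside 29.2% and 35.2% of all tested genes. Among 16252 protein-coding genes of at least 1 CPM in a fraction, 42.7% (23.2% higher, 19.5% lower) and 50.7% (26.9% higher, 23.8% lower) were called, so the family's share of calls lay near that of comparable genes. Both comparisons use the same tdTomato libraries, so their calls are not independent of each other.

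Without eGFP replicate 1, the calls were 11 higher and 9 lower for the eGFP/tdTomato fraction and 10 higher and 13 lower for the eGFP fraction. Another scaling moved the first split: with RLE factors the eGFP/tdTomato fraction had 10 carriers higher and 7 lower than the tdTomato fraction, and with upper-quartile factors 12 and 7. A fit with the share of reads outside genes as a covariate gave 13 higher and 3 lower for the eGFP fraction. The shares of all genes called in these other fits are not given here, so their counts stand without a background. The libraries of 19 carriers did not overlap between the eGFP/tdTomato and tdTomato fractions (background 35.4% of tested genes), nor those of 16 between the eGFP and tdTomato fractions (33.9%). The median log2 fold change of the carriers was 0.05 and −0.15, beside 0.70 and 0.79 over all tested genes. Over protein-coding genes of at least 1 CPM in a fraction it was 0.24 and 0.19, nearer to that of the carriers. With RLE factors the median of all genes in the first comparison moved from 0.70 to 0.57 and that of the carriers to −0.06, and the carriers' median lay 0.65 under that of all genes with TMM factors and 0.63 under it with RLE factors.

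**Figure D1:**
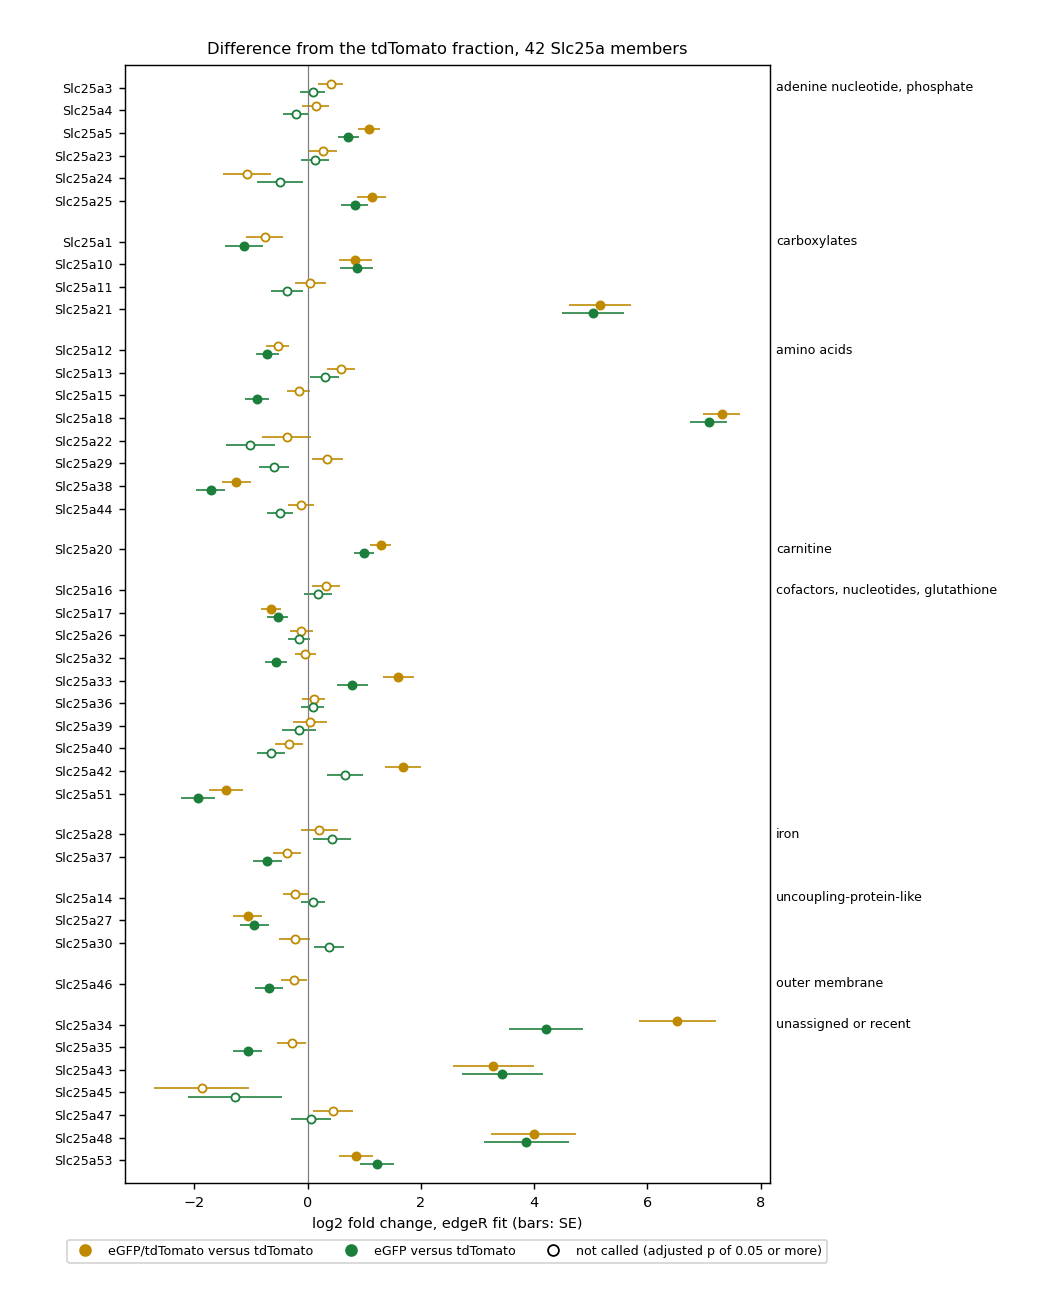
Log2 fold change (x axis, edgeR fit, bars are SE) of 42 carriers against the tdTomato fraction, grouped by substrate class, with filled points for adjusted p under 0.05. Slc25a18, Slc25a21, Slc25a34, Slc25a43 and Slc25a48 lie above 3 in both comparisons, and Slc25a38 and Slc25a51 lie lowest among the called carriers.

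Amino acid carriers held the largest difference. Slc25a18, a mitochondrial glutamate carrier (chromosome 6, 120773578 to 120794336, plus strand), was at 227, 411, 498 and 386 CPM in eGFP replicates 1, 2, 3 and 5, at 398, 400.1, 560.2 and 433 in the eGFP/tdTomato libraries in the same order, and at 3.34, 3.22, 3.09 and 1.62 in the tdTomato libraries. Every library of the first 2 fractions lay far above every tdTomato library, while the eGFP and eGFP/tdTomato libraries overlapped. These levels gave a log2 fold change of 7.31 ± 0.33 (SE, 159-fold, adjusted p = 5.23e-10) for the eGFP/tdTomato fraction and 7.08 ± 0.33 (135-fold, adjusted p = 5.03e-10) for the eGFP fraction. Its last exons overlap those of Atp6v1e1 on the opposite strand by 32 bases (1.67% of its exon length). Whether the authors' counting used strand is not given in the sources used here.

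Slc25a38, a glycine carrier that serves haem synthesis (chromosome 9, 120110374 to 120124504, plus strand), went the other way. It was at 15.2, 29.3, 39.6 and 25.8 CPM in the eGFP libraries, at 28.2, 35.4, 50.5 and 35.7 in the eGFP/tdTomato libraries and at 94.3, 73.7, 108 and 84.0 in the tdTomato libraries. All 4 tdTomato libraries were above all 8 others. Slc25a38 was lower, with a log2 fold change of −1.26 ± 0.26 (adjusted p = 0.00144) for the eGFP/tdTomato fraction and −1.71 ± 0.26 (adjusted p = 9.81e-05) for the eGFP fraction. In both comparisons the call held under each of the 22 alternatives tried.

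Promoter sequence is shown for some of the carriers with large differences in either direction, and not for Slc25a43, Slc25a48 or Slc25a51. Printed are the bases that precede the RefSeq start in GRCm38.p6 (RefSeq promoter windows of up to 250 bases, stopped where the GENCODE gene begins, read 5′ to 3′ on the gene's strand). Capitals mark matches, on either strand, to 6 short motifs: the GC box GGGCGG, the CCAAT box CCAAT, the TATA box TATAAA, the NFI motif TTGGCA, the NRF1 motif TGCGCA and the Sox motif ACAATG. The CCAAT box and the NFI motif can overlap on opposite strands, and TGCGCA reads the same on both strands.
Slc25a18, chr6:120773518-120773577, plus strand: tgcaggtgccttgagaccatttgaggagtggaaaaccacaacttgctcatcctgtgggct
Slc25a38, chr9:120110132-120110373, plus strand: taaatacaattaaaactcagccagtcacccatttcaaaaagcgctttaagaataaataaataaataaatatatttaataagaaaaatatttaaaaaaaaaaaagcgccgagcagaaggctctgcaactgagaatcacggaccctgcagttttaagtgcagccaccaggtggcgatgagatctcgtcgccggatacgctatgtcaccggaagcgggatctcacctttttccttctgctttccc
Slc25a21, chr12:57197473-57197722, minus strand: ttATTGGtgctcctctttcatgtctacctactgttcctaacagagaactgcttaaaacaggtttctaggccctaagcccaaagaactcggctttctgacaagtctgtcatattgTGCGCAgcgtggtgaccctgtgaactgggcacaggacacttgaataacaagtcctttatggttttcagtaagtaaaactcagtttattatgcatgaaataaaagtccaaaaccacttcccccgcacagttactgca
Slc25a34, chr4:141623835-141624084, minus strand: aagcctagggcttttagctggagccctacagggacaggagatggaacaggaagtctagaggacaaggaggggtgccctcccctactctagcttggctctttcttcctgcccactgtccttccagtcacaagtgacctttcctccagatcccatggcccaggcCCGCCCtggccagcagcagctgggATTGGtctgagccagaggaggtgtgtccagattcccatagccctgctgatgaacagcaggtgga

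The 60 bases printed for Slc25a18 and the 242 for Slc25a38 held none of the 6 motifs. Those of Slc25a21 held a CCAAT box and an NRF1 motif, and those of Slc25a34 a GC box and a CCAAT box. For shares over the whole family, the full 250 bases before each RefSeq start were used, without the stop at the GENCODE gene. In the window of Slc25a18 this takes in 190 bases inside the gene that are not printed. Of the described carriers, 34 had at least 1 such full window, 44 windows in all. The GC box stood in 31 of the 44 (70.5%), beside 32.7% of all 32851 windows of the table, and the CCAAT box in 21 (47.7%), beside 33.8%. TATAAA was in 2 of the 44 (4.55%, beside 12.4%), TTGGCA in 2 (4.55%, beside 12.3%), TGCGCA in 3 (6.82%, beside 6.43%) and ACAATG in 2 (4.55%, beside 10.7%). The median GC content was 57.0% in the carriers' windows and 52.4% in all windows. The 32851 windows were not limited to protein-coding or expressed genes, and a gene can have several, so they are not a like background for the carriers. A match describes the letters only.

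The other 6 amino acid carriers moved less. Slc25a12, an aspartate/glutamate carrier of the malate-aspartate shuttle, was lower in the eGFP fraction than in the tdTomato fraction (46.0 ± 9.68 against 75.5 ± 14.4 CPM, log2 fold change −0.71 ± 0.20, adjusted p = 0.0099), as was Slc25a15, the ornithine carrier (14.4 ± 3.91 against 26.8 ± 1.48 CPM, −0.90 ± 0.21, adjusted p = 0.00293). The call of Slc25a12 was lost with the covariate for reads outside genes (−0.39, adjusted p = 0.0761) and without tdTomato replicate 3 (−0.58, adjusted p = 0.0518). Its eGFP/tdTomato difference of −0.53 did not pass (adjusted p = 0.056) and was called lower under 12 of 22 alternatives, DESeq2 among them (adjusted p = 0.00266). Slc25a12 shares a stretch of 247 bases at 99.6% identity with Adpgk. Reads from it may fit both genes, and reads at several places were left out of the tests. Slc25a13, the second aspartate/glutamate carrier, was at 6.98, 8.57 and 5.68 CPM in the eGFP, eGFP/tdTomato and tdTomato fractions and passed in neither comparison. Slc25a22, the second glutamate carrier, was at 7.84 ± 5.35, 12.3 ± 4.37 and 15.8 ± 4.73 CPM, with log2 fold changes of −1.01 ± 0.43 (adjusted p = 0.0839, eGFP) and −0.37 ± 0.43 (adjusted p = 0.516, eGFP/tdTomato). The former was called under 8 of 22 alternatives, DESeq2 (adjusted p = 0.029) and limma-voom (0.0387) among them. Slc25a29, a carrier of basic amino acids, and Slc25a44, a carrier of branched-chain amino acids, passed in neither comparison, at 13.9, 26.7 and 21 CPM and at 61.9, 79.4 and 86.1 CPM in the 3 fractions. DESeq2 called both lower in the eGFP fraction (Slc25a29 −0.67, adjusted p = 0.0412, and Slc25a44 −0.54, adjusted p = 0.0432).

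Carboxylate carriers also differed in both directions. Slc25a21, which carries oxoadipate and related dicarboxylates from lysine and tryptophan breakdown (chromosome 12, 56712634 to 57197472, minus strand), was at 12.9, 14.1, 7.94 and 12.4 CPM in the eGFP libraries, at 16.2, 12, 9.83 and 13.3 in the eGFP/tdTomato libraries and at 0.312, 0.361, 0 and 0.738 in the tdTomato libraries. No tdTomato library reached the lowest of the others, and the tdTomato values rest on 39 reads in all. Slc25a21 was higher, by 5.16 ± 0.55 on the log2 scale (adjusted p = 2.59e-06) for the eGFP/tdTomato fraction and 5.04 ± 0.55 (adjusted p = 2.91e-06) for the eGFP fraction. Its exons overlap 189 bases of Pax9 on the opposite strand (3.88% of their length).

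Slc25a1, the citrate carrier that supplies cytosolic acetyl units for lipid synthesis (chromosome 16, 17925223 to 17928219, minus strand), was at 44.2, 37.5, 103 and 58.6 CPM in the eGFP libraries, at 54.0, 54.5, 108 and 97.4 in the eGFP/tdTomato libraries and at 128, 86.8, 187 and 129 in the tdTomato libraries. The library numbered 3 was the highest in each fraction, and the ranges of the fractions overlapped. It was lower in the eGFP than in the tdTomato fraction (−1.12 ± 0.33, adjusted p = 0.0159), a call that was lost with the covariate for reads outside genes (−0.69, adjusted p = 0.141), without eGFP replicate 2 (−0.96, adjusted p = 0.053) and without tdTomato replicate 3 (−0.92, adjusted p = 0.0587). The eGFP/tdTomato fraction did not pass against the tdTomato fraction (−0.76 ± 0.33, adjusted p = 0.105), and it was called lower under 10 of 22 alternatives, among them DESeq2 (−0.87, adjusted p = 0.0236) and the fit without eGFP replicate 1 (−0.97, adjusted p = 0.0257).

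Slc25a10, the dicarboxylate carrier, was higher in both fractions, at 30.8 ± 13.3 and 30.1 ± 9.31 against 16.8 ± 3.64 CPM (0.87 ± 0.29, adjusted p = 0.0307, and 0.84 ± 0.29, adjusted p = 0.0435). The eGFP call was lost without tdTomato replicate 1, 2 or 5, eGFP replicate 3 or 5, or eGFP/tdTomato replicate 3 (adjusted p = 0.0581 to 0.145). The eGFP/tdTomato call was lost under 13 of 22 alternatives, 9 of them leaving out 1 library and the weakest without eGFP/tdTomato replicate 3 (0.36, adjusted p = 0.374). Slc25a11, the oxoglutarate/malate carrier and the other arm of the malate-aspartate shuttle, was at 79.4, 106 and 102 CPM and passed in neither comparison.

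The most abundant class carries adenine nucleotides and phosphate. Slc25a5, an ADP/ATP carrier (chromosome X, 36795651 to 36798807, plus strand), was at 711, 1335, 1004 and 972 CPM in the eGFP libraries, at 1424, 1200, 1246 and 1274 in the eGFP/tdTomato libraries and at 609.6, 694, 617 and 517 in the tdTomato libraries. All tdTomato libraries were below all others, eGFP replicate 1 by the least. The log2 fold change was 1.08 ± 0.19 (adjusted p = 0.000451) and 0.72 ± 0.19 (adjusted p = 0.00824) for the eGFP/tdTomato and eGFP fractions, and the latter call was lost without eGFP replicate 2 (0.54, adjusted p = 0.0502), without eGFP replicate 5 (0.53, adjusted p = 0.134) or without eGFP/tdTomato replicate 3 (0.48, adjusted p = 0.136). Slc25a5 has 2 processed pseudogenes of at least 95% identity, Gm5529 and Gm5560, which held 0.795% of its own count. Reads at several places were left out, so this does not show how many reads the copies share.

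Slc25a4, the second ADP/ATP carrier, was at 526 ± 178, 669 ± 73.6 and 605 ± 64.4 CPM in the eGFP, eGFP/tdTomato and tdTomato fractions and passed in neither comparison. The same held for Slc25a3, the phosphate carrier, at 419 ± 130.1, 524 ± 69.4 and 395 ± 56.4 CPM, although its eGFP/tdTomato libraries lay above all tdTomato libraries. With the covariate for reads outside genes, Slc25a3 was called higher in the eGFP/tdTomato (0.74, adjusted p = 0.00019) and eGFP fractions (0.50, adjusted p = 0.00761). That fit also called Slc25a4 higher in the eGFP/tdTomato fraction (0.49, adjusted p = 0.0195). Of the carriers that exchange ATP-magnesium for phosphate under control of calcium, Slc25a25 (chromosome 2, 32414487 to 32451445, minus strand) was called. Its exons overlap those of Naif1 on the opposite strand over 4.82% of their length.

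Slc25a25 was at 36.7, 58.8, 73.2 and 54.4 CPM in the eGFP libraries, at 51.9, 66.9, 84.4 and 73.4 in the eGFP/tdTomato libraries and at 21.7, 34.2, 42.2 and 27.8 in the tdTomato libraries. The eGFP/tdTomato libraries lay above all tdTomato libraries, and eGFP replicate 1 fell inside the tdTomato range. The log2 fold change was 1.13 ± 0.25 (adjusted p = 0.0021, or 0.0504 without eGFP/tdTomato replicate 3) and 0.83 ± 0.24 (adjusted p = 0.0153) in the eGFP/tdTomato and eGFP fractions. The eGFP call was lost without tdTomato replicate 1 (adjusted p = 0.0731), eGFP replicate 3 (0.0518), eGFP replicate 5 (0.106) or eGFP/tdTomato replicate 3 (0.0793). Slc25a23 and Slc25a24, of the same subgroup, passed in neither comparison, at 47.6, 52.4 and 43.6 CPM and at 3.22, 2.15 and 4.52 CPM. Slc25a24 had a log2 fold change of −1.07 ± 0.42 in the eGFP/tdTomato fraction (adjusted p = 0.0694), which 9 of 22 alternatives called, DESeq2 among them (adjusted p = 0.0187).

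Slc25a20, the carnitine/acylcarnitine carrier that brings long-chain fatty acids to oxidation (chromosome 9, 108662088 to 108684641, plus strand), was at 69.8, 101, 100.1 and 76.3 CPM in the eGFP libraries, at 111, 99.4, 112 and 102 in the eGFP/tdTomato libraries and at 39.9, 55.0, 44.1 and 34.2 in the tdTomato libraries. The tdTomato libraries were below all others. Slc25a20 was higher in both fractions (1.29 ± 0.18, adjusted p = 5.24e-05, and 1.00 ± 0.18, adjusted p = 0.000465), under every alternative tried.

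Carriers of cofactors, nucleotides and glutathione split in direction. Slc25a51, the NAD+ carrier (chromosome 4, 45395923 to 45408766, minus strand), was at 13.5, 26.4, 28.0 and 25.5 CPM in the eGFP libraries, at 19.2, 38.2, 40.7 and 34.1 in the eGFP/tdTomato libraries and at 59.3, 89.1, 134 and 76.7 in the tdTomato libraries. No tdTomato library overlapped the others, and replicate 1 was the lowest library in all 3 fractions. Slc25a51 was lower, by a log2 fold change of −1.44 ± 0.30 (adjusted p = 0.00145) and −1.94 ± 0.30 (adjusted p = 0.000109) for the eGFP/tdTomato and eGFP fractions, called under every alternative tried.

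Slc25a42, a carrier of coenzyme A (chromosome 8, 70184340 to 70212305, minus strand), was at 18.3, 28.1, 49.2 and 31.0 CPM in the eGFP libraries, at 45, 60.4, 83.2 and 68.9 in the eGFP/tdTomato libraries and at 13.9, 13.4, 29.7 and 23.2 in the tdTomato libraries. The eGFP/tdTomato libraries were above all tdTomato libraries, whereas the eGFP libraries overlapped both. The eGFP/tdTomato fraction was higher (1.68 ± 0.32, adjusted p = 0.000736), and the eGFP fraction did not pass (0.66 ± 0.31, adjusted p = 0.116), although it did with the covariate for reads outside genes (1.08, adjusted p = 0.00976) and without tdTomato replicate 3 (0.91, adjusted p = 0.0487).

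Slc25a33, a pyrimidine nucleotide carrier (chromosome 4, 149744036 to 149774277, minus strand), was at 9.70, 15.6, 11.1 and 11.8 CPM in the eGFP libraries, at 16.2, 14.4, 21.8 and 31.8 in the eGFP/tdTomato libraries and at 8.06, 5.33, 5.80 and 8.63 in the tdTomato libraries. The tdTomato libraries were below all others. Slc25a33 was higher in the eGFP/tdTomato fraction (1.60 ± 0.27, adjusted p = 0.000299). For the eGFP fraction it was called with TMM factors (0.79 ± 0.27, adjusted p = 0.0332), a call lost under 12 of 22 alternatives, among them without eGFP replicate 1, 2 or 5, tdTomato replicate 1, 2 or 3, or eGFP/tdTomato replicate 3 (adjusted p = 0.0507 to 0.196). An antisense gene, Gm13068, overlaps 14.9% of its exon length.

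Lower in both fractions was Slc25a17, which serves the peroxisome rather than the mitochondrion and carries coenzyme A and related cofactors, at 117 ± 22.7 and 108 ± 6.05 against 169 ± 29.5 CPM (−0.53 ± 0.18, adjusted p = 0.0326, and −0.65 ± 0.18, adjusted p = 0.0124). Both calls were lost without tdTomato replicate 3 (adjusted p = 0.127 and 0.0636), and the eGFP call also without tdTomato replicate 1 (0.0589) or 2 (0.0942) or eGFP replicate 3 (0.0544), or with the covariate (−0.28, adjusted p = 0.214). Slc25a32, a folate carrier, was lower in the eGFP fraction (−0.56 ± 0.19, adjusted p = 0.0311), and the eGFP/tdTomato fraction did not pass (−0.04 ± 0.19, adjusted p = 0.888). The difference between these comparisons is that of the eGFP/tdTomato against the eGFP fraction, which did not pass (0.52 ± 0.19, adjusted p = 0.25). The call of Slc25a32 was lost without tdTomato replicate 1 (adjusted p = 0.0534) or 3 (0.113) or eGFP replicate 3 (0.0721), and with the covariate (0.122).

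Passing in neither comparison were Slc25a16, linked to coenzyme A, Slc25a26, the S-adenosylmethionine carrier, Slc25a36, a pyrimidine nucleotide carrier, and the glutathione carriers Slc25a39 and Slc25a40. In the tdTomato fraction they were at 15.6, 10.7, 175, 111 and 22.9 CPM. Slc25a40 lay near the threshold in the eGFP fraction (14.6 ± 4.51 CPM, −0.65 ± 0.25, adjusted p = 0.0566), and 12 of 22 alternatives called it lower, among them DESeq2 (adjusted p = 0.0192) and limma-voom (0.0457).

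Of the iron carriers, Slc25a37, mitoferrin of the erythroid lineage, was lower in the eGFP fraction (11.3 ± 3.08 against 18.4 ± 5.02 CPM, −0.71 ± 0.25, adjusted p = 0.0404). This call was lost under 7 of 22 alternatives, among them without eGFP replicate 2 (adjusted p = 0.103), tdTomato replicate 1 (0.112) or 3 (0.129), or eGFP/tdTomato replicate 1 (0.0512) or 5 (0.0553), and with the covariate (0.132). Summed over 5 erythrocyte markers, the level was 74.1 ± 19.4 CPM in the eGFP libraries, 62.3 ± 21.2 in those with both labels and 58.1 ± 49.3 in the tdTomato libraries, with none of the 5 called, and the part of such RNA in this result was not tested. Slc25a28, the second mitoferrin, was at 9.17, 7.84 and 6.81 CPM and passed in neither comparison.

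Among carriers that resemble uncoupling proteins, Slc25a27, a carrier known from neural tissue (chromosome 17, 43641891 to 43667214, minus strand), was at 8.53, 12.3, 19.6 and 10 CPM in the eGFP libraries, at 10.3, 12.2, 13.6 and 10.7 in the eGFP/tdTomato libraries and at 19.0, 22.5, 32.1 and 23.5 in the tdTomato libraries. The eGFP/tdTomato libraries were below all tdTomato libraries, and eGFP replicate 3 fell into the tdTomato range. Slc25a27 was lower, with log2 fold changes of −1.06 ± 0.26 (adjusted p = 0.00505) and −0.94 ± 0.26 (adjusted p = 0.00931) for the eGFP/tdTomato and eGFP fractions. The latter call was lost with the covariate for reads outside genes (−0.58, adjusted p = 0.087). Slc25a14 and Slc25a30 passed in neither comparison. Slc25a46, the member that sits in the outer membrane and takes part in mitochondrial shape, was lower in the eGFP fraction (76.7 ± 26.3 against 123 ± 14.4 CPM, −0.68 ± 0.24, adjusted p = 0.0363). That call was lost under 7 of 22 alternatives, 6 of them leaving out 1 library: tdTomato replicate 1, 2 or 3 (adjusted p = 0.0797, 0.0877 and 0.0938) or eGFP/tdTomato replicate 1, 2 or 5 (0.0501, 0.0508 and 0.0501). The other was the covariate for reads outside genes (−0.27, adjusted p = 0.3).

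Carriers whose substrate is unassigned or was proposed only recently held several of the largest differences. Slc25a34 (chromosome 4, 141618824 to 141623821, minus strand), an orphan carrier, was at 1.45, 2.08, 6.06 and 0.981 CPM in the eGFP libraries, at 9.14, 13.2, 16.7 and 14.4 in the eGFP/tdTomato libraries and at 0.134, 0.0301, 0.112 and 0.295 in the tdTomato libraries. No fraction overlapped another. The tdTomato values rest on 15 reads over 4 libraries. The log2 fold change against the tdTomato fraction was 6.53 ± 0.68 (adjusted p = 1.9e-06) for the eGFP/tdTomato fraction and 4.21 ± 0.65 (adjusted p = 9.92e-05) for the eGFP fraction.

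Slc25a53, an orphan carrier (chromosome X, 136981116 to 137038302, minus strand), was at 21, 36.7, 65.5 and 50.6 CPM in the eGFP libraries, at 32.9, 25.6, 30.4 and 45.8 in the eGFP/tdTomato libraries and at 18.8, 14.8, 24.6 and 16.4 in the tdTomato libraries. eGFP replicate 1 was the only library of the first 2 fractions inside the tdTomato range. It was higher in the eGFP fraction (1.22 ± 0.30, adjusted p = 0.00481) and in the eGFP/tdTomato fraction (0.85 ± 0.30, adjusted p = 0.0431). The latter was lost under 11 of 22 alternatives, 8 of them leaving out 1 library: tdTomato replicate 1, 2 or 5, eGFP/tdTomato replicate 1, 3 or 5, or eGFP replicate 2 or 5 (adjusted p = 0.0587 to 0.175).

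Slc25a35, an orphan carrier (chromosome 11, 68968131 to 68974365, plus strand), was at 4.29, 5.26, 8.05 and 5.28 CPM in the eGFP libraries, at 7.06, 10.9, 11.1 and 10.4 in the eGFP/tdTomato libraries and at 8.82, 12, 15.8 and 11.3 in the tdTomato libraries. The eGFP libraries were below all tdTomato libraries, and the eGFP/tdTomato libraries overlapped both. It was lower in the eGFP fraction (−1.06 ± 0.26, adjusted p = 0.00484), a call lost with the covariate for reads outside genes (−0.77, adjusted p = 0.0535). Its exons overlap those of Rangrf on the opposite strand by 1151 bases (31.3% of their length), so its count is uncertain where strand was not used.

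At low levels, Slc25a43, an orphan carrier, was at 4.59 ± 1.26 and 4.10 ± 1.22 CPM in the eGFP and eGFP/tdTomato fractions and at 0.417 ± 0.432 in the tdTomato fraction (3.44 ± 0.71, adjusted p = 0.00128, and 3.28 ± 0.71, adjusted p = 0.00205). Slc25a48, proposed to carry choline, was at 2.77 ± 0.657, 3.02 ± 0.696 and 0.179 ± 0.205 CPM (3.86 ± 0.75, adjusted p = 0.000728, and 3.99 ± 0.75, adjusted p = 0.000646). Their tdTomato values rest on 46 and 22 reads. Slc25a45 and Slc25a47 passed in neither comparison, and Slc25a45 was at 2.41 ± 3.06, 1.62 ± 0.495 and 5.94 ± 1.37 CPM. In the eGFP libraries Slc25a45 was at 1.45, 1.29, 0 and 6.9 CPM, so replicate 5 carried the mean. The eGFP difference of −1.29 (adjusted p = 0.228) was −2.95 without eGFP replicate 5 (adjusted p = 0.0113) and was called by limma-voom (−3.15, adjusted p = 0.0226). The eGFP/tdTomato difference of −1.87 (adjusted p = 0.116) was called by DESeq2 (−1.98, adjusted p = 0.043), and without eGFP replicate 3 (adjusted p = 0.00958) or 5 (0.0323). It was also called with only the fractions compared in the edgeR fit (−2.03, adjusted p = 0.000287). The eGFP/tdTomato libraries of Slc25a45 lay below all tdTomato libraries.

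**Figure D2:**
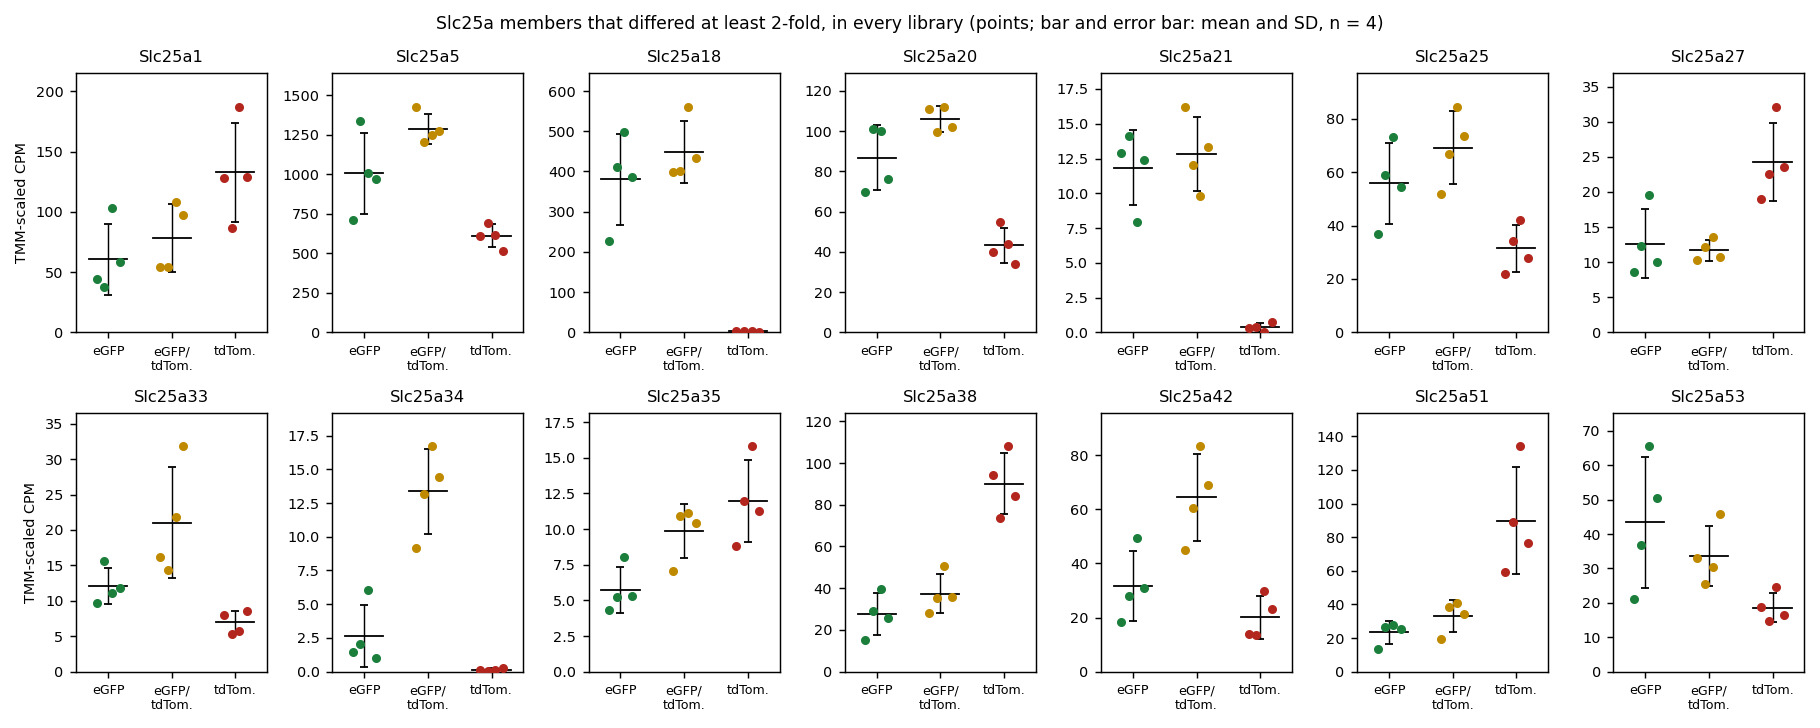
Level of each of 14 carriers (y axis, TMM-scaled CPM, linear from 0) in every library of the 3 fractions, with the mean and SD (n = 4) as bars. Slc25a18 and Slc25a21 lie near 0 in the tdTomato libraries, Slc25a38 and Slc25a51 lie highest there, and Slc25a34 is highest in the eGFP/tdTomato libraries at 9.14 to 16.7 CPM.

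How cells with both reporters differ from the eGFP fraction was compared last. Slc25a34 was the only carrier called, 5.02-fold higher in the eGFP/tdTomato fraction (2.33 ± 0.53, SE, 95% interval 1.20 to 3.45, adjusted p = 0.0267). This made 1 of 43 carriers higher (2.33%), where 2.49% of all tested genes were called (0.814% higher, 1.67% lower) and 4.25% of protein-coding genes of at least 1 CPM (1.42% higher, 2.82% lower). None of the 43 was called lower by edgeR, DESeq2 or limma-voom, and at an unadjusted p under 0.05 in edgeR 7 were higher and 1 lower. The share of all tested genes at that unadjusted threshold is not given here, so these counts stand without a background. The Slc25a34 call was lost without eGFP replicate 1 (2.07, adjusted p = 0.0643), 2 (2.23, 0.0939) or 5 (2.01, 0.0972), and without eGFP/tdTomato replicate 2 (2.34, 0.059), 3 (2.15, 0.0873) or 5 (2.29, 0.083), while its log2 fold change stayed between 2.01 and 3.17 under all 22 alternatives.

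Markers of other cells also differed between these fractions. The 6 ependyma markers summed to 179 ± 62.5 CPM in the eGFP fraction and 12.7 ± 3.08 in the eGFP/tdTomato fraction, and all 6 were called lower in the latter. The 6 mural and fibroblast markers summed to 775 ± 542 and 47.8 ± 4.55 CPM, 4 of them lower. The 8 myelinating oligodendrocyte markers summed to 779 ± 396 and 2321 ± 819 CPM, 6 of them higher, and 4 of 7 oligodendrocyte progenitor markers were higher (sums of 1396 ± 523 and 2762 ± 570.3 CPM). Of 7 microglia and macrophage markers 3 were lower, with sums of 119.5 ± 117 and 26.2 ± 4.9 CPM. Slc25a34 was at 0.143 ± 0.111 CPM in the tdTomato fraction, where the myelin markers were highest. The part of the other cells in its difference was not tested.

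The carriers that did not pass here had estimates mostly above 0, 33 of 43 in all, with a median of 0.30 beside −0.02 over all tested genes and 0.05 over protein-coding genes of at least 1 CPM. In the lists of other genes described below, the median was 0.35 for general mitochondrial genes and 0.31 for enzymes that the carriers feed. It was 0.19 for the import machinery, 0.15 for other mitochondrial membrane transporters and −0.18 for relatives of the family under other symbols. Libraries did not overlap for 4 carriers (background 7.94%): Slc25a34, Slc25a15 (0.74 ± 0.21, 95% interval 0.30 to 1.18, adjusted p = 0.0844), Slc25a29 (0.94 ± 0.27, 0.36 to 1.52, adjusted p = 0.102) and Slc25a32 (0.52 ± 0.19, 0.12 to 0.92, adjusted p = 0.25). DESeq2 called 4 carriers higher, Slc25a15, Slc25a29, Slc25a34 and Slc25a42 (adjusted p = 0.0132, 0.0207, 0.000401 and 0.028). The share of all genes that DESeq2 called is not given here. For Slc25a42, edgeR gave 1.02 ± 0.31 (95% interval 0.35 to 1.69, adjusted p = 0.133). Slc25a18 did not pass, at 0.24 with an interval of −0.30 to 0.77, nor did Slc25a21 at 0.12 (−0.82 to 1.05) and Slc25a20 at 0.29 (−0.10 to 0.67). Intervals of this width do not show that these carriers are expressed alike in both fractions.

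**Figure D3:**
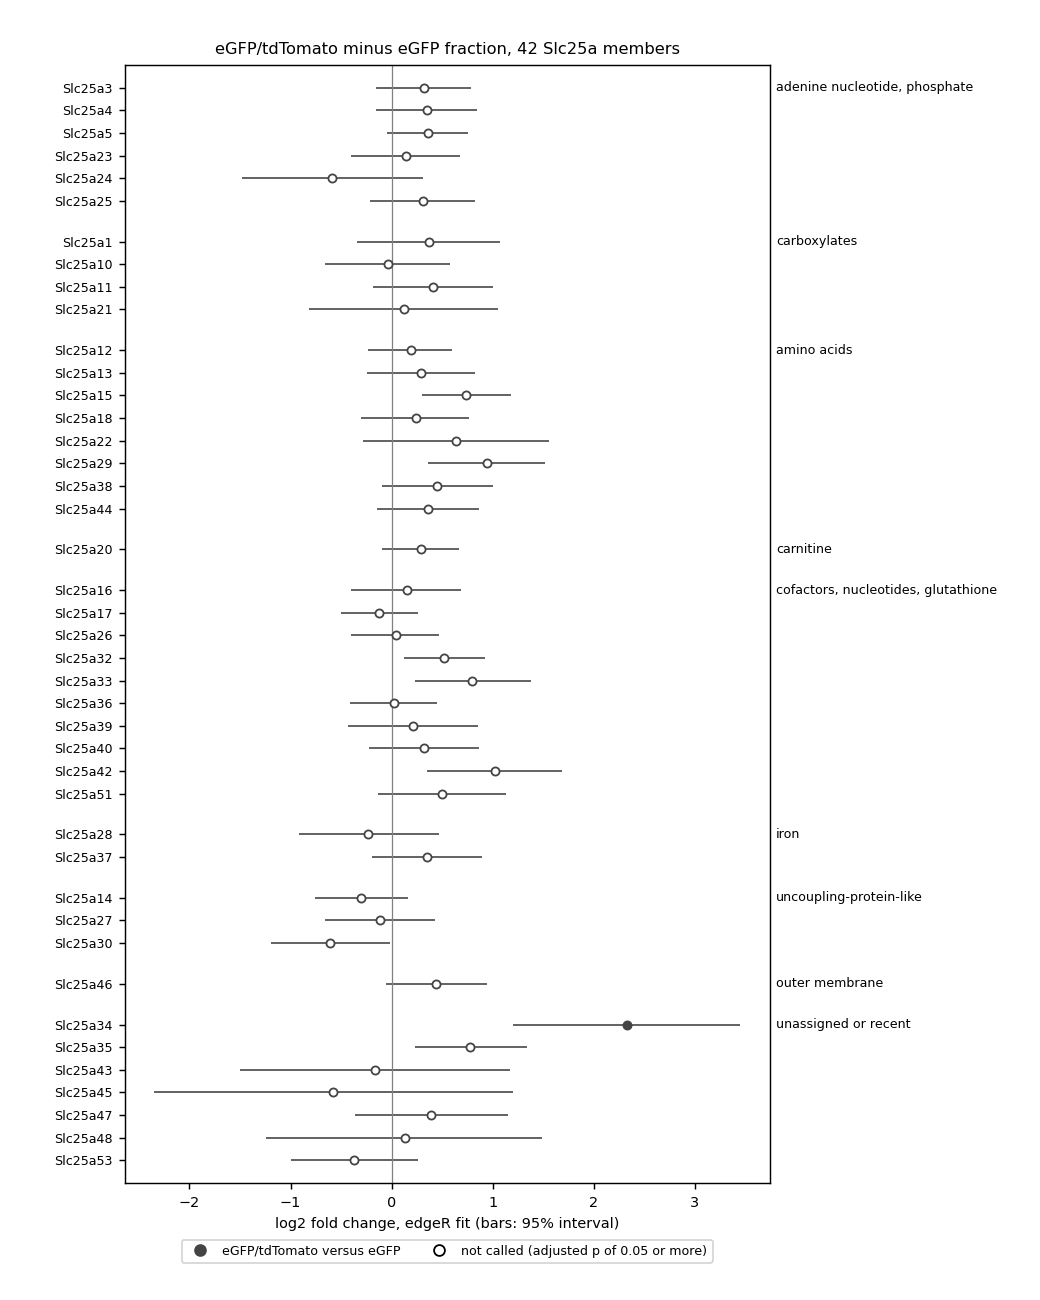
Log2 fold change of the eGFP/tdTomato minus the eGFP fraction (x axis, edgeR fit, bars are 95% intervals) for 42 carriers by substrate class. Slc25a34 at 2.33 is the only filled point, and its interval of 1.20 to 3.45 lies above 0.

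Levels were also divided by exon length, that of the merged exons of all annotated transcripts of a gene. This length can exceed that of the transcript expressed, and the order of carriers and the paralogue shares depend on it. Per length, Slc25a5 led in every fraction, without overlap with the next carrier. It was at 611 ± 155, 781 ± 58.9 and 370.2 ± 44.0 CPM per kilobase in the eGFP, eGFP/tdTomato and tdTomato fractions. Slc25a4 came second (224 ± 75.4, 284 ± 31.3 and 257 ± 27.3). Slc25a18 came next in the eGFP and eGFP/tdTomato fractions (199 ± 59.1 and 234 ± 40.1), where its libraries overlapped those of Slc25a4, and was at 1.47 in the tdTomato fraction. There Slc25a3 followed Slc25a4 (71.1 ± 10.2), then Slc25a1 (61.3 ± 19.0) and Slc25a17 (59.3 ± 10.3), neighbours whose libraries overlapped.

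Summed over the 43 carriers, the level was 3629 ± 888, 4469 ± 360 and 3210.4 ± 388 CPM, and Slc25a3, Slc25a4 and Slc25a5 together held 53.6 ± 2.53%, 55.6 ± 2.46% and 50.2 ± 2.36% of it. A mean of 1 CPM or more was reached by all 43 carriers among the eGFP and among the eGFP/tdTomato libraries, and by 39 among the tdTomato libraries. The 4 under that level there were Slc25a21, Slc25a34, Slc25a43 and Slc25a48.

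**Figure D4:**
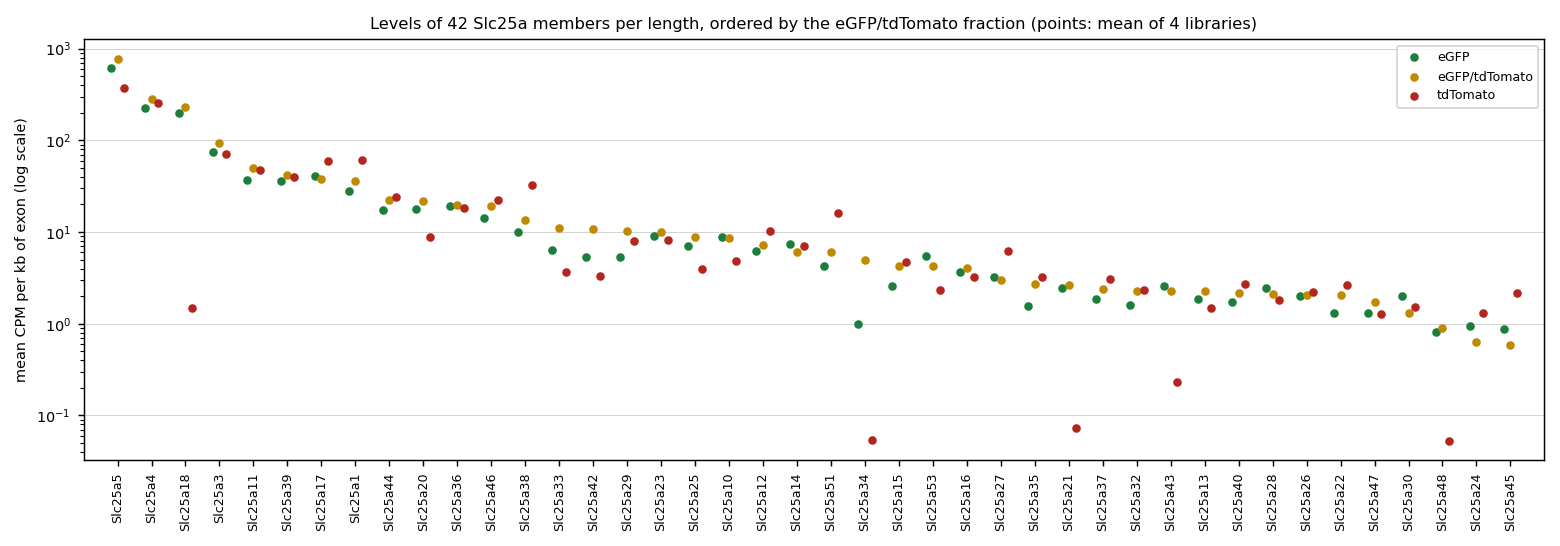
Mean level of 42 carriers per kilobase of exon (y axis, CPM per kb, log scale), ordered by the eGFP/tdTomato fraction, 1 point per fraction. Slc25a18 stands after Slc25a5 and Slc25a4 at 199 and 234 in the eGFP and eGFP/tdTomato fractions, and at 1.47 in the tdTomato fraction.

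Within pairs of paralogues with the same substrate, the share of each partner per length of exon was set side by side, a description chosen after the values were seen. Slc25a18 made up 99.4 ± 0.268% of the glutamate carrier pair (Slc25a18 and Slc25a22) in the eGFP libraries, 99.1 ± 0.233% in the eGFP/tdTomato libraries and 36.1 ± 10.3% in the tdTomato libraries, where single libraries ran from 25.1% to 47.3%. Slc25a4 made up 26.5 ± 5.35%, 26.7 ± 2.53% and 41.0 ± 2.06% of the ADP/ATP carrier pair. Slc25a12 made up 77.2 ± 4.55%, 76.1 ± 3.34% and 87.2 ± 1.26% of the aspartate/glutamate pair. In these 3 pairs the tdTomato libraries did not overlap either of the other fractions.

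Slc25a33 held 24.8 ± 1.93%, 35.9 ± 11.5% and 17.4 ± 5.86% of the pyrimidine nucleotide pair with Slc25a36, and the eGFP/tdTomato and tdTomato libraries did not overlap. Slc25a37 held 43.9 ± 13.4%, 53.4 ± 3.38% and 63.6 ± 7.71% of the mitoferrin pair, with no overlap between the eGFP and tdTomato libraries. Slc25a39 held 94.3 ± 4.32%, 95 ± 0.738% and 93.7 ± 0.204% of the glutathione pair. There too the eGFP/tdTomato and tdTomato libraries did not overlap, at a difference of only 1.34 percentage points. With 4 libraries against 4, the smallest p of a two-sided exact permutation test is 0.0286, and adjusted over the 18 comparisons it became 0.0571, so no pair passed 0.05. A pair with no overlap can pass after this adjustment only where many of the 18 comparisons reach the smallest p. The test therefore cannot decide on single pairs. Without division by exon length, the Slc25a33 share differed by 6.37 percentage points between the eGFP/tdTomato and tdTomato fractions, beside 18.5 with it.

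**Figure D5:**
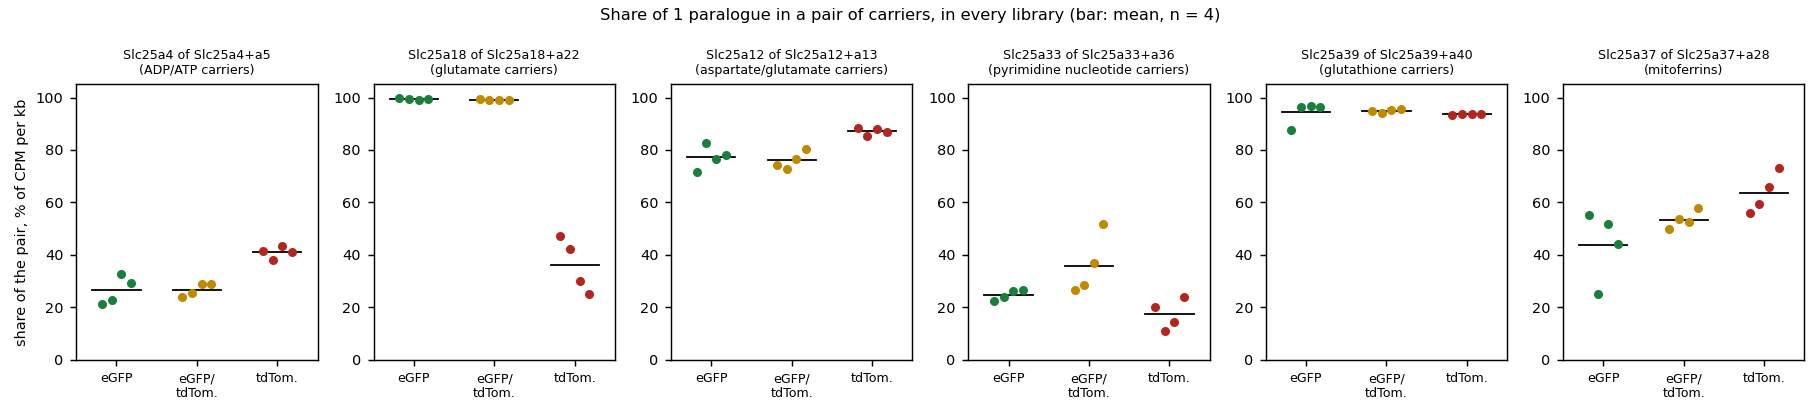
Share of the first-named paralogue in each of 6 pairs (y axis, % of the pair's CPM per kilobase) in every library of the 3 fractions, with the mean as a bar. The share of Slc25a18 falls from about all of the pair to 25.1 to 47.3% in the tdTomato libraries, and that of Slc25a4 is higher there than in any other library.

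Genes around the carriers were counted in lists chosen by function. Against the tdTomato fraction, 14 of 83 such genes were higher and 23 lower in the eGFP fraction, and 18 higher and 14 lower in the eGFP/tdTomato fraction (edgeR). The background among protein-coding genes of at least 1 CPM was 26.9% higher and 23.8% lower, and 23.2% and 19.5%, in that order. DESeq2 called 14 higher and 30 lower, and 17 higher and 20 lower, and limma-voom 13 and 25, and 20 and 15. The background above is that of edgeR only. Among relatives of the family under other symbols, 2 of 5 were higher in each fraction. Ucp2, which carries dicarboxylates, had the largest difference in the eGFP fraction (3.60 ± 0.36, adjusted p = 1.1e-06) and Ucp3, an uncoupling protein, in the eGFP/tdTomato fraction (2.83 ± 0.72, adjusted p = 0.0067). Of 20 other mitochondrial membrane transporters, 5 were higher and 5 lower in the eGFP fraction and 5 higher and 2 lower in the eGFP/tdTomato fraction, led by Sfxn5, a sideroflexin (4.5 ± 0.26, adjusted p = 4.12e-09, and 4.65 ± 0.27, adjusted p = 3.54e-09).

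Of the machinery that imports carrier proteins, 1 of 15 tested genes was higher and 7 were lower in the eGFP fraction, and 1 was higher and 5 lower in the eGFP/tdTomato fraction. Its largest difference was in Tomm20, an outer membrane import receptor (−1.83 ± 0.20, adjusted p = 2.42e-06, and −1.47 ± 0.19, adjusted p = 2.45e-05). Of 24 enzymes that the carriers feed, 6 were higher and 5 lower in the eGFP fraction and 9 higher and 5 lower in the eGFP/tdTomato fraction. Cpt1a, which makes the acylcarnitines that Slc25a20 imports, led them (3.57 ± 0.29, adjusted p = 1.27e-07, and 4.12 ± 0.30, adjusted p = 3.77e-08).

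Of 19 general mitochondrial genes, 6 were lower in the eGFP fraction, and 1 was higher and 2 lower in the eGFP/tdTomato fraction. Opa1, a fusion protein of the inner membrane, had the largest difference (−1.35 ± 0.19, adjusted p = 4.24e-05, and −0.86 ± 0.19, adjusted p = 0.00228). Between the eGFP/tdTomato and eGFP fractions, edgeR called 0 of these 83 genes, with 13 higher and 1 lower at an unadjusted p under 0.05. DESeq2 called 5 higher and limma-voom 2 higher. The shares of all tested genes at the unadjusted threshold and with these other tools are not given here.

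Some carriers lie beside each other in the genome. Slc25a29 and Slc25a47 start 162 bases apart on opposite strands of chromosome 12, Slc25a43 ends 18448 bases before Slc25a5 on chromosome X, and Slc25a41 and Slc25a54 neighbour Slc25a23 and Slc25a24. Slc25a43 and Slc25a5 were both higher in both fractions than in the tdTomato fraction, while edgeR called neither Slc25a29 nor Slc25a47 in any comparison.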

How the data were processed

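RNA of 12 sorted libraries was analysed from raw counts per gene as the authors deposited them, 1 file per library. Reads were aligned with STAR to GRCm38 and counted with HTSeq, per the submitters' processing notes. Versions, strand setting and annotation release are not given in the sources used here. The 5 lines of each file that name no gene were left out of library sizes and tests: reads outside genes were 21.2 to 57.1%, ambiguous reads 1.79 to 4.6% and reads at several places 10.1 to 15.2%. Symbols, exon lengths and positions came from GENCODE M21 (53360 of 53465 identifiers, 99.8%).

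Counts were tested with edgeR 4.0.16 in R 4.3.3 (robust quasi-likelihood F-test, TMM factors, filterByExpr by group), fitted to the 12 libraries together with 1 term per fraction. P-values were adjusted by Benjamini-Hochberg over 29361 genes, and an adjusted p under 0.05 was a call. The SE is the log2 fold change over the root of F, and 95% intervals use the t distribution with the fit's degrees of freedom. The fit was tested on simulated counts. Levels are means ± SD of 4 libraries. Near copies were sought with BLAST 2.17.0 (at least 95% identity over 200 bases). The alternatives were other scalings, filters and tools (DESeq2 1.42.0, limma 3.58.1), a covariate, a replicate block and each library left out.

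Of the 43 described carriers, 42 are named and plotted, and 1 is counted but not reported here by name. Values in every library are given for those called with a 2-fold or larger difference that reach 10 CPM in the fraction where they are higher, and of each list of other genes the 1 with the largest called difference is named. The carriers, classes and lists were chosen with earlier results of these data known. Paralogue shares were added after the values were seen.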

Additional observations from a re-analysis of the deposited data

Results flagged for a closer look

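In 6 of 129 groups of 4 libraries (43 carriers in 3 fractions, 4.65%), 1 library lay far from the other 3 by Dixon's ratio, and chance flags about 1 in 20 groups. In eGFP replicate 1, where 57.1% of reads lay outside genes, Slc25a46 was low at 37.6 CPM (84.5 to 93.3 in the other 3) and Slc25a51 was low at 13.5 CPM (25.5 to 28.0). Slc25a15 was high in eGFP replicate 3 at 20.2 CPM (12.1 to 12.7), and Slc25a36 was high in eGFP replicate 2 at 249 CPM (159.5 to 170.1). Slc25a18 was low in tdTomato replicate 5 at 1.62 CPM (3.09 to 3.34), and Slc25a43 was high in eGFP/tdTomato replicate 5 at 5.93 CPM (3.39 to 3.59). The 3 eGFP libraries concerned were in the fits above, and the calls of Slc25a15 and Slc25a51 against the tdTomato fraction held without each of them.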

How the results depend on the processing

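Of 40 calls of single carriers, 22 held under all 22 alternatives, 12 of them between the eGFP/tdTomato and tdTomato fractions and 10 between the eGFP and tdTomato fractions. The other 18 were lost under at least 1, 23 differences gained a call under at least 1, and 0 calls changed sign. For the eGFP/tdTomato against the eGFP fraction, 1 carrier was higher, and the count was 3 with upper-quartile factors, 3 with at least 1 CPM in 4 libraries, 2 with protein-coding genes only, 4 with DESeq2, 2 with the covariate for reads outside genes, and 0 to 4 with 1 library left out (4 without eGFP replicate 3). The count lower in the eGFP/tdTomato than in the tdTomato fraction was 4, and it was 7 with RLE or upper-quartile factors, 8 with the 1 CPM filter or protein-coding genes only, 9 with DESeq2 or with only the fractions compared, and 3 to 9 with 1 library left out (8 without eGFP/tdTomato replicate 3, and 9 without either eGFP replicate 1 or eGFP replicate 5). The carriers' median there, 0.05, was −0.35 to 0.17 with 1 library left out, lowest without eGFP/tdTomato replicate 3. Between the eGFP and tdTomato fractions, the covariate left 3 carriers lower (12 in the main analysis) and turned the median from −0.15 to 0.16. With 1 library left out, 6 to 16 were lower (6 without tdTomato replicate 3) and 7 to 11 higher (7 without eGFP replicate 5 or eGFP/tdTomato replicate 3). The cause of these shifts was not tested. The shares of all genes called under these alternatives are not given here. The labels do not say what a shared replicate number stands for, and same-numbered libraries correlated at −0.208 to 0.692 in their deviations, so the numbers were not taken as pairs. With the replicate block, the eGFP/tdTomato fraction had 5 carriers higher than the eGFP fraction (Slc25a34 with Slc25a15, Slc25a29, Slc25a35 and Slc25a42, adjusted p = 0.0013 to 0.0475 for these 4) and 7 lower than the tdTomato fraction. Levels under about 1 CPM rest on few reads.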
